A study of Homo sapiens with 6 samples.

Results

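CSMD1 and CDH23 are 2 very long human genes, and the DEK peaks over their bodies are described here. They were chosen by their length and by the DEK peaks that the precipitations gave there, so the number, density, tags, width and sharing of those peaks chose the members and are given as a description, with no test. A peak was taken where it overlapped the gene body extended by 10 kb on each side (GENCODE release 44 on GRCh37). This gave 47 of the 15017 peaks of DEK replicate 1 and 130 of the 152779 peaks of DEK replicate 2, in 2 of 20163 protein-coding genes. CSMD1 lies on the minus strand at chr8:2792875-4852494, with 70 exons in its canonical transcript, and held 35 peaks of DEK replicate 1 and 62 of DEK replicate 2. CDH23 lies on the plus strand at chr10:73156677-73575704, also with 70 canonical exons, and held 12 and 68.

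DEK binding was measured by chromatin immunoprecipitation and sequencing (ChIP-seq) in U937 cells, an established human myeloid line that grows as monocyte-like cells. The labels name 6 samples of this 1 line: 2 precipitations with a DEK antibody, 2 with an antibody to histone H3 trimethylated at lysine 4 (H3K4me3), and 2 of non-precipitated chromatin. The labels state no treatment of any group, and the study calls the DEK precipitations independent but does not say whether they came from separate cultures, so a spread between them may be technical. The peak lists of the DEK and H3K4me3 precipitations were analysed, and the non-precipitated chromatin was not analysed here.

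DEK is an abundant chromatin protein that binds DNA and histones and takes part in a fusion protein of acute myeloid leukemia. H3K4me3 marks the start of active genes, so that a gene in use usually carries it where transcription begins. CSMD1 encodes a large membrane protein of CUB and sushi domains, the latter being the building blocks of complement regulators, and is best known from the nervous system. CDH23 encodes cadherin 23, which forms the upper part of the tip link that opens the channels of sensory hair cells in the inner ear, and its loss causes Usher syndrome. Neither is known as a gene of myeloid function. An intron of CDH23 contains a complete gene on the opposite strand, VSIR, which encodes the immune checkpoint protein VISTA and is used by myeloid cells.

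A tag is 1 aligned read counted by MACS in a peak, and each peak carries a score, which rises with the peak's significance as 10 × −log10 of its MACS p-value. The lists held 988363 tags in replicate 1 and 4172422 tags in replicate 2, with a median of 47 and 20 tags per peak. For sequencing depth the study states only a lower bound, and the exact depth of each library behind these lists is unknown. In replicate 1 the deposited list sets the false discovery rate of each of its peaks, members included, at 100%, and it lay between 0.75% and 2.34% for the member peaks of replicate 2. H3K4me3 lay within 1 kb of a transcription start site (TSS) of 5 of 5 myeloid genes (SPI1, CD33, LYZ, CSF1R and MPO) in H3K4me3 replicate 1. In replicate 2 it was 3 of 5. Of all annotated TSSs, 39.1% and 36.5% had such an interval. The share per gene, where 1 of several TSSs is enough, is not given here, so the counts do not check the cell line.

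CDH23 was denser in DEK peaks than its chromosome as a whole in both precipitations, whereas CSMD1 was denser in one and sparser in the other. CSMD1 had 1.68 peaks per 100 kb in replicate 1 against 0.597 over chromosome 8, a ratio of 2.82. In replicate 2 it had 2.98 against 4.56, a ratio of 0.654. The mean log2 ratio of CSMD1 was 0.44 ± 1.49 (SD, n = 2), so the replicates differed by more than the mean differed from 0. CDH23 had 2.73 peaks per 100 kb in replicate 1 against 0.606 over chromosome 10, a ratio of 4.51, and 15.5 against 6.46 in replicate 2, a ratio of 2.40. Its mean log2 ratio was 1.72 ± 0.64 (SD, n = 2), on the same side of 0 in both.

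H3K4me3, which had no part in the choice of the genes, set them further apart. CSMD1 held 4 intervals in H3K4me3 replicate 1 and 1 in replicate 2, with density ratios to its chromosome of 0.134 and 0.0576 and a mean log2 ratio of -3.51 ± 0.86 (SD, n = 2). CDH23 held 16 and 5, with ratios of 2.16 and 1.16 and a mean log2 ratio of 0.66 ± 0.64 (SD, n = 2). Of these intervals of CDH23, 3 and 2 lay over the nested gene VSIR with 10 kb on each side. The H3K4me3 ratios of CDH23 were not computed without them. Both ratios of CSMD1 lay below both of CDH23, and with 2 samples of 1 cell line no test between genes was made.

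**Figure D1:**
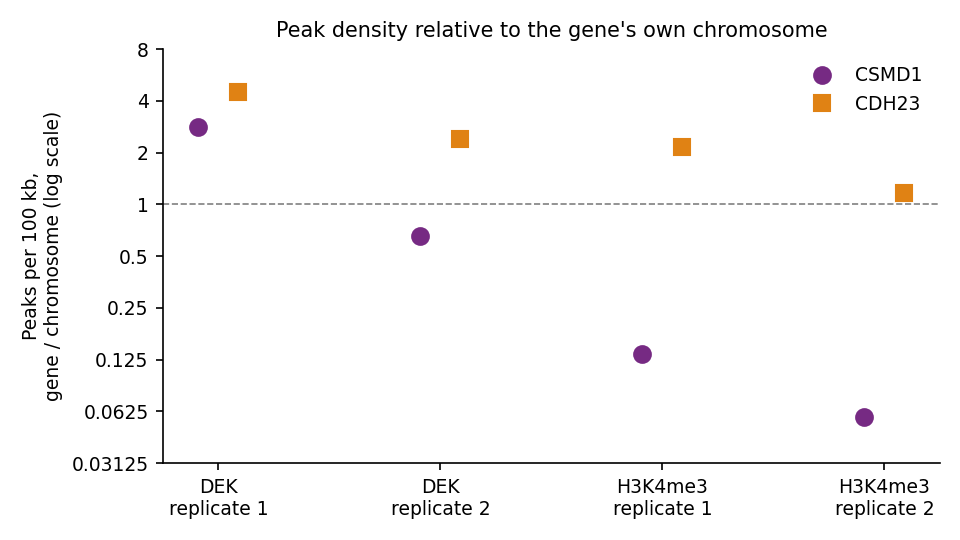
Peaks per 100 kb in each extended gene divided by peaks per 100 kb over its own chromosome (log axis), for CSMD1 (circles) and CDH23 (squares), with 1 point for each of the 4 precipitations. The squares lie above the dashed line of equal density in all 4, from 1.16 to 4.51, and the circles lie above it in DEK replicate 1 (2.82) only.

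Most replicate 1 peaks of CSMD1 were gathered in 1 stretch beyond the middle of the gene. The stretch from 50% to 75% of its length, counted from the 5′ end, held 22 of the 35 peaks of replicate 1, while 9 lay before 25%, 1 between 25% and 50%, and 3 beyond. These 22 formed a single run, in which no gap between neighbours was longer than 50 kb, at chr8:3359414-3617919, a stretch of 258.5 kb that spans introns 5 to 10. There the peaks covered 20.1% of the bases and stood at 8.51 per 100 kb, against 0.714 per 100 kb in the remaining 1821 kb. Of 8328 such runs over all chromosomes in the replicate 1 list, 4, this one included, held at least as many peaks, and none of the other three was on chromosome 8.

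The highest peaks of replicate 2 lay in the same stretch. Replicate 2 had 16 peaks there, or 6.19 per 100 kb, against 2.53 per 100 kb in the rest of CSMD1. The median peak in the run had 103 tags in replicate 1 and 41 in replicate 2, against 33 and 18 outside it. Tags per kb of peak were 53.5 against 39.1 in replicate 1 and 44.4 against 27.7 in replicate 2. Fold enrichment, which MACS takes over a local background, went the other way, with medians of 3.98 in the run and 5.38 outside in replicate 1, and 4.30 and 4.84 in replicate 2. More tags thus stood beside a lower fold over the local background in both precipitations, and whether the background itself was raised in the run was not tested. Without the run, a comparison made after seeing the data, the mean log2 density ratio of CSMD1 was -0.30.

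The fullest stretch of CSMD1 was not the same in the 2 lists when it was counted in fixed bins. In bins of 250 kb over chromosome 8, the bin at chr8:3250001-3500000 was the fullest of 586 in replicate 1, with 15 peaks and a median of 1 over all bins. In replicate 2 the fullest bin of the gene was chr8:4250001-4500000, also with 15 peaks, which was in place 143 of 586 and stood against a median of 8. The first 25% of CSMD1 held 28 of the 62 peaks of replicate 2, with a median of 18.5 tags.

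**Figure D2:**
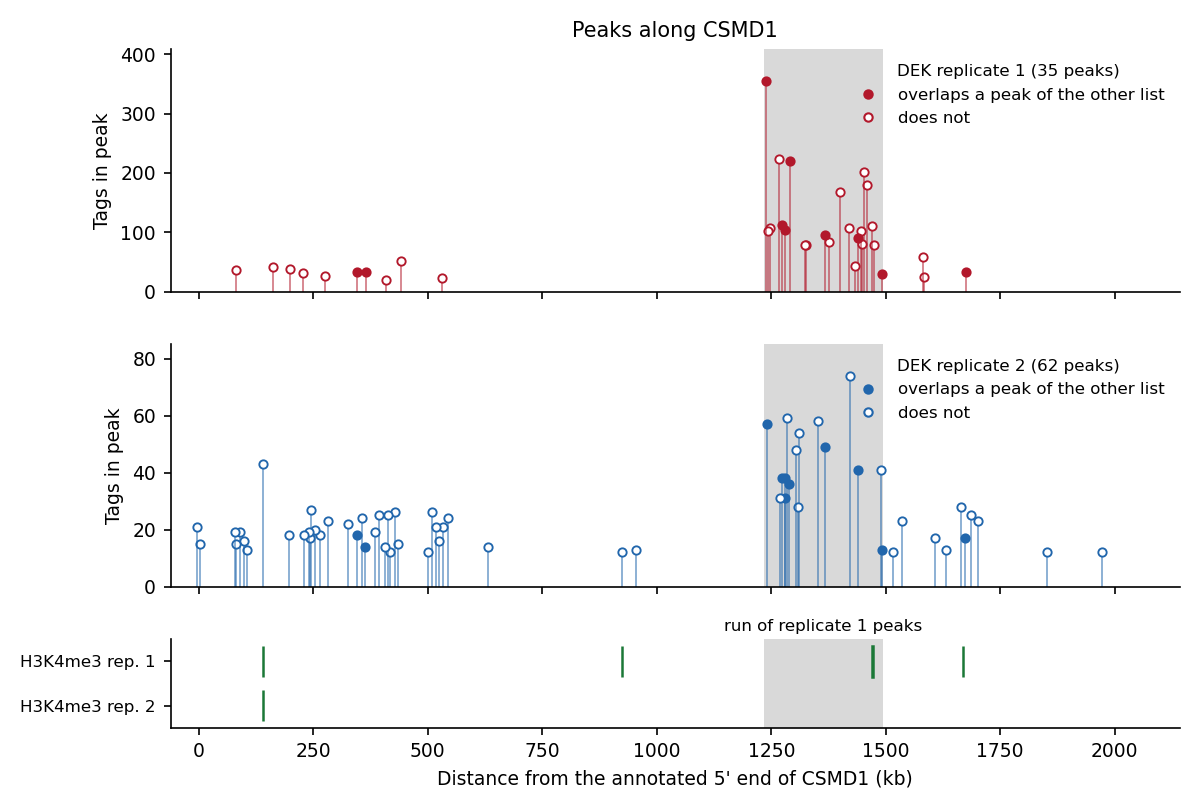
Tags in each DEK peak (upper panels) and H3K4me3 intervals (lower panel) against distance from the annotated 5′ end of CSMD1 in kb, with the run of replicate 1 peaks shaded. Filled points overlap a peak of the other DEK list. The highest peaks of both lists, with up to 355 tags in replicate 1 and up to 74 in replicate 2, lie in the shaded run.

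In CSMD1, 10 of 35 replicate 1 peaks (28.6%) overlapped a replicate 2 peak by at least 1 bp, against 27.4% over the whole list, a share near the background. From the side of replicate 2 it was 11 of 62 (17.7%) against 2.90% over the whole list, a description of a value that chose the gene. They gave 11 shared intervals of 75 to 1130 bp with a median of 818 bp, and 8 of the 11 replicate 2 peaks lay in the run. The strongest was chr8:3611534-3612609, 1240.4 kb from the 5′ end in intron 5, where replicate 1 had 355 tags (score 206.8) and replicate 2 had 57 tags (score 172.07). The replicate 1 peak there was 6702 bp wide and was the widest of the gene, and it reached exon 6.

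The other shared intervals of the run carried fewer tags. At 1272.8 kb from the 5′ end replicate 1 had 112 tags and replicate 2 had 38. A single replicate 1 peak of 104 tags met 2 neighbouring replicate 2 peaks of 31 and 38 tags, at 1279.9 and 1279.4 kb. These 3 replicate 2 peaks were of like height, and the same held of their replicate 1 partners.

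At 1288.8 kb replicate 1 had 220 tags in a peak of 4455 bp and replicate 2 had 36 tags near its edge. At 1366.6 kb the counts were 96 and 49, and at 1440.0 kb they were 91 and 41. The lowest of the run, at 1492.7 kb, had 30 and 13. Replicate 1 had more tags in each of these, and replicate 2 never exceeded 57 tags at a shared interval of CSMD1. The counts are not normalized, and the replicate 1 peaks were the wider in each. An unshared replicate 2 peak of the run had 74 tags.

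Only 3 shared intervals lay outside the run, and all were low beside the median peak of the run. In intron 1, at 344.7 kb, replicate 1 had 33 tags and replicate 2 had 18. In intron 2, at 363.8 kb, the counts were 33 and 14, and in intron 23, at 1674.4 kb, they were 33 and 17. These are close to the median peak outside the run, which had 33 tags in replicate 1 and 18 in replicate 2. The smallest peaks of the gene had 20 and 12 tags.

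Strong peaks were also found in 1 precipitation alone. The unshared replicate 1 peak with the highest score, at 1266.1 kb in intron 6, had 223 tags and a score of 141.76. It was followed by peaks of 58 tags (score 131.23, intron 12), 52 tags (130.77, intron 2), 179 tags (127.43, intron 10) and 111 tags (124.79, intron 10). In replicate 2 the peak with the highest score of the whole gene, 58 tags with a score of 296.58 at 1351.4 kb in intron 7, had no partner in replicate 1. Behind it came 54 tags (score 244.51, intron 7), 24 tags (183.19, intron 2), 41 tags (173.42, intron 10) and 27 tags (166.03, intron 1). Of these 10 unshared peaks, the peaks in introns 6, 7 and 10 all lie in the run.

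Along CSMD1 nearly all peaks had their summit in an intron and their middle away from start sites. The summits of 35 of 35 replicate 1 peaks and of 60 of 62 replicate 2 peaks were intronic. The middle of 1 of 35 replicate 1 peaks (2.86%) was within 1 kb of any TSS, against 16.3% over the whole list. For replicate 2 it was 0 of 62 (upper Wilson 95% bound 5.83%, counting error only) against 16.7%. At the 3 clustered TSSs of the 5′ end, chr8:4852223-4852494, no peak of either DEK list and no H3K4me3 interval lay within 1 kb. Of the 15 annotated TSSs of CSMD1, 2 had a replicate 1 peak within 1 kb, both of them internal TSSs (3267129 and 3474261), and none had a replicate 2 peak or H3K4me3. Over all annotated TSSs the shares were 4.73% for DEK replicate 1, 38.6% for DEK replicate 2, and 39.1% and 36.5% for the H3K4me3 replicates.

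The DEK peaks of CSMD1 lay almost entirely outside H3K4me3. In replicate 1, 1 of 35 peaks (2.86%) overlapped an H3K4me3 replicate 1 interval, against 50.2% over the list, and 0 overlapped a replicate 2 interval, against 34.0%. In replicate 2 it was 2 of 62 (3.23%) against 10.7%, and 1 of 62 (1.61%) against 8.05%. Over the other peaks of chromosome 8 the shares for replicate 1 were 42.4% and 30.0%. None of the 11 shared intervals, which come from 10 replicate 1 peaks, touched H3K4me3 of either replicate. The share over all shared intervals of the lists is not given here. A single H3K4me3 interval was found in both replicates, at chr8:4711512-4713063 in intron 1, 140.2 kb from the 5′ end and at no annotated TSS, and it met a DEK replicate 2 peak but no replicate 1 peak.

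The bases under the CSMD1 peaks were measured as features that the choice had not used. The extended gene has 38.5% G and C, and its chromosome 40.2%. The median peak had 42.9% in replicate 1 and 46.0% in replicate 2, which was below the 44.4% and 48.6% of the other peaks of the chromosome. In none of the replicate 1 peaks and in 4 of the 62 replicate 2 peaks did 50% or more of the 32-base words occur 10 or more times in the reference genome, against 6.32% of the other replicate 2 peaks of the chromosome. Leaving such peaks out removed no shared interval.

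CDH23 differed in layout, since its DEK peaks leaned to the 3′ end of the gene in both precipitations. The last 25% of the gene held 8 of 12 replicate 1 peaks and 26 of 68 replicate 2 peaks, with medians of 174 and 42 tags. Going towards it in steps of 25% from the 5′ end, there were 2, 1 and 1 peaks in replicate 1 and 12, 11 and 14 in replicate 2. Intron 38, of 35.8 kb, held more peaks than any other intron, with 5 and 10. It is the intron that contains VSIR, at 73507313 to 73533277 on the minus strand.

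**Figure D3:**
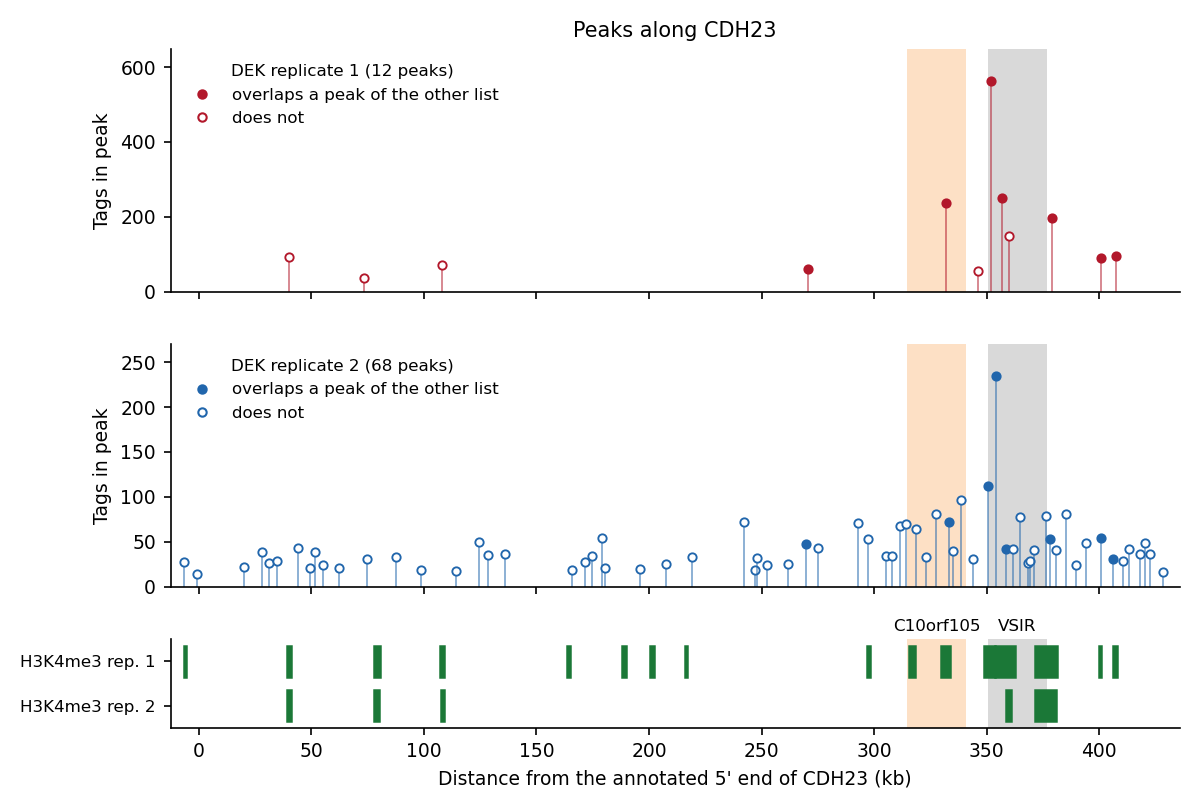
Tags in each DEK peak (upper panels) and H3K4me3 intervals (lower panel) against distance from the annotated 5′ end of CDH23 in kb, with the nested genes C10orf105 and VSIR shaded. Filled points overlap a peak of the other DEK list. The highest peaks of both lists, 563 tags in replicate 1 and 235 in replicate 2, lie over VSIR.

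The sequence under the DEK summits in CDH23 is shown for 3 replicate 1 peaks, each as 300 bases of GRCh37 on the plus strand (5′ to 3′) centred on the summit and outside annotated untranslated exons. They stand for the replicate 1 peak of the shared interval with no H3K4me3, the peak over the VSIR TSS at 73517387 and the peak upstream of its outer start. The intron 14 window begins past the shared bases, which end at 73427139, so no replicate 2 peak covers it. The window labelled inner start of VSIR ends at 73516584 and does not reach the TSS that its peak covers. Capitals mark GAGGAAG, the core that the myeloid factor PU.1 prefers, which was searched on both strands together with CACGTG, the E-box, which none of the 3 holds. The 2 motifs can share at most 1 letter.
intron 14, chr10:73427192-73427491, 62 tags: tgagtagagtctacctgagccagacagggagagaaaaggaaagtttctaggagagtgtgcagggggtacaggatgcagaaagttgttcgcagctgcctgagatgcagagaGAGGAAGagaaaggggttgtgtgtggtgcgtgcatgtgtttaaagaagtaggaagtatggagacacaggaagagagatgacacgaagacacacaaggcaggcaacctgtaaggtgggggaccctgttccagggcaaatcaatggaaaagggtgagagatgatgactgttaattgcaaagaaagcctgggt
inner start of VSIR, chr10:73516285-73516584, 150 tags: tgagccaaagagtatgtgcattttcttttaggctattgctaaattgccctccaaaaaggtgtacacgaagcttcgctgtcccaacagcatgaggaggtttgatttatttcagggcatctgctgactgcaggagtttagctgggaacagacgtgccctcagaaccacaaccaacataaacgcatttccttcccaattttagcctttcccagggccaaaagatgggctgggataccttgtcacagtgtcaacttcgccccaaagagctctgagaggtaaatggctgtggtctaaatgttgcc
upstream of VSIR, chr10:73535117-73535416, 198 tags: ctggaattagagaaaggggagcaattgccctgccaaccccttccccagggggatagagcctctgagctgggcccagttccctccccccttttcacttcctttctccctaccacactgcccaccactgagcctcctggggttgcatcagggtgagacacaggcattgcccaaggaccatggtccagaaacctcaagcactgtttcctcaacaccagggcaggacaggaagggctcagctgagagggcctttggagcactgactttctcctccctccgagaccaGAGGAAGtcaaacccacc

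The PU.1 letters were found in 2 of these 3 windows, and the window of the 249-tag peak over VSIR, taken by the same rule and not shown, holds neither motif. Over all summit windows of the same length they were in 20.4% of replicate 1 and 6.74% of replicate 2. In CDH23 they were in 4 of 12 (33.3%) and 8 of 68 (11.8%), and in CSMD1 in 3 of 35 (8.57%) and 5 of 62 (8.06%). The E-box was in 4.96% and 5.05% of all windows, in 0 and 4 of the CDH23 windows, and in 1 and 1 of the CSMD1 windows. A match is a run of letters and not a measured binding site.

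The densest DEK binding of CDH23 lay over VSIR. VSIR with 10 kb on each side, 46.0 kb in all, held 5 of the 12 replicate 1 peaks with 63.9% of their tags, and 13 of the 68 replicate 2 peaks with 29.7% of their tags. The densities there were 10.9 and 28.3 peaks per 100 kb, against 1.78 and 14.0 in the rest of the gene. The neighbouring C10orf105, extended in the same way, stood at 6.50 and 26.0, and PSAP, which reaches beyond the limit, at 0 and 21.8. In replicate 2 the density over VSIR was thus close to that over C10orf105. The extended C10orf105 overlaps the extended VSIR, so some peaks count for both, among them the replicate 1 peak of 563 tags. Peaks over VSIR also had higher scores in replicate 1, with a median of 271.45 against 76.26 elsewhere, while in replicate 2 the medians were 75.70 and 69.22. With VSIR and its 10 kb left out, a comparison made after seeing the data, the mean log2 density ratio of CDH23 was 1.34 in place of 1.72.

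The DEK peak of CDH23 with the highest score covered the 3′ end of VSIR in both precipitations. Replicate 1 had a peak of 5287 bp at chr10:73505774-73511060 with 563 tags, a score of 667.64 and a 13.23-fold enrichment, and these were the highest values of the gene. Replicate 2 had 2 peaks over the same bases. One of 112 tags (score 291.53) crossed the 3′ end, and one of 235 tags (score 245.09) began within VSIR. H3K4me3 replicate 1 had an interval there, and H3K4me3 replicate 2 had none.

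The next replicate 1 peak towards the start of VSIR, with 249 tags, met the same 235-tag peak at one edge and a replicate 2 peak of 42 tags at the other. Another, at chr10:73515723-73517528, had 150 tags and a score of 277.52 and covered the inner TSS of VSIR at 73517387, where both H3K4me3 replicates had an interval. It had no partner in replicate 2, where the nearest peak that way, 42 tags at chr10:73517834-73519278, began beyond its end. Replicate 2 therefore had peaks on both sides of this TSS and none across it.

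At the outer TSS of VSIR, 73533277, the H3K4me3 intervals were the widest of CDH23, with 9808 bp in replicate 1 and 9310 bp in replicate 2. DEK replicate 2 had a peak of 79 tags (score 150.21) across this TSS and DEK replicate 1 had none there. Both precipitations met upstream of it at chr10:73534709-73535622, where replicate 1 had 198 tags (score 271.45) and replicate 2 had 53 tags (score 86.52). All 3 annotated TSSs of VSIR had a replicate 2 peak within 1 kb, 1 had a replicate 1 peak, and 2 had H3K4me3 in each replicate.

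**Figure D4:**
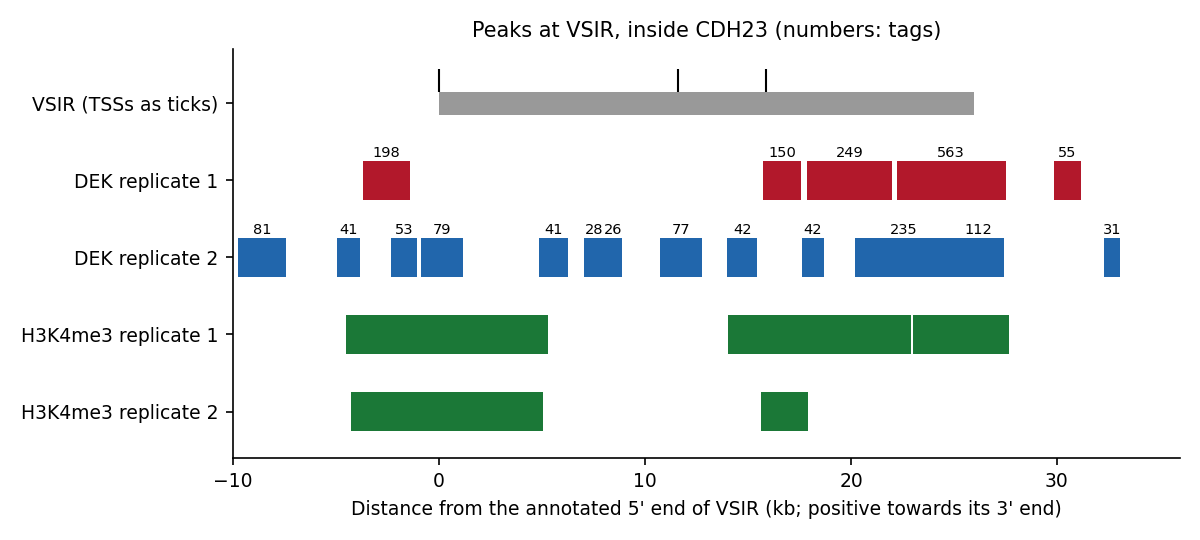
DEK peaks and H3K4me3 intervals as boxes, against distance in kb from the annotated 5′ end of VSIR, with VSIR in grey, its TSSs as ticks and the tags of each DEK peak above its box. Replicate 1 peaks of 150 to 563 tags lie from the inner TSS to the 3′ end, and the outer TSS at 0 carries H3K4me3 of both replicates and a replicate 2 peak of 79 tags.

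Away from VSIR, CDH23 had 4 shared intervals. In intron 14, 270.2 kb from the 5′ end, replicate 1 had 62 tags and replicate 2 had 47, and this is the shared interval without H3K4me3. At 333.0 kb, over C10orf105 (a small gene on the opposite strand), replicate 1 had 236 tags and replicate 2 had 72. Near the 3′ end the counts were 90 and 54 at 401.0 kb, across exons 49 and 50, and 96 and 31 at 406.7 kb, where the overlap was 108 bp. Replicate 1 had more tags in all 4, by counts that are not normalized.

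Taking the whole gene, 7 of 12 replicate 1 peaks (58.3%) had a partner, against 27.4% over the list. In replicate 2, 8 of 68 peaks (11.8%) had one, against 2.90%. They gave 9 shared intervals of 108 to 2739 bp with a median of 1440 bp. Since 1 replicate 1 peak may meet several replicate 2 peaks, these intervals are not independent of each other. Sharing also had a part in the choice of the gene, so its shares are a description.

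The unshared replicate 1 peaks of CDH23 were 5 in all. Beside the peak at the inner start of VSIR there were 93 tags at 39.9 kb in intron 1 (score 136.12) and 72 tags at 108.0 kb in intron 3 (score 134.49), both overlapping H3K4me3 of both replicates and both with their middle over 3 kb from an annotated TSS. The other two, of 37 and 55 tags, had scores of 51.58 and 50.07 and no H3K4me3. No replicate 2 peak lay at the 39.9 kb or the 108.0 kb site.

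In replicate 2 the unshared peaks with the highest scores lay between 292.8 and 394.2 kb from the 5′ end. They had 71 tags (score 204.29) in intron 19, 77 (193.62) and 79 (150.21) over VSIR in intron 38, 48 (156.83) in intron 46 and 81 (144.88) in intron 41. The peak of 77 tags covered the TSS of VSIR at 73521701. Of these 5, the peak across the outer start of VSIR carried H3K4me3 and the others did not.

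CDH23 carried little H3K4me3 at its own 5′ end. At 73156677, where its longest transcripts begin, a DEK replicate 2 peak of 14 tags lay within 1 kb, DEK replicate 1 had none, and neither H3K4me3 replicate had an interval. Its 15 annotated TSSs fall at 10 sites when those within 100 bp of each other are counted once, since several lie at the 5′ end and meet the same 14-tag peak. Of the 10 sites, 8 had a replicate 2 peak within 1 kb, 1 a replicate 1 peak, 3 an H3K4me3 replicate 1 interval and 0 a replicate 2 interval. Over all annotated TSSs, not merged into sites, the shares in the same order were 38.6%, 4.73%, 39.1% and 36.5%. Neighbouring sites may still meet the same peak or interval. By the middle of the peak, 1 of 12 replicate 1 peaks (8.33%) and 8 of 68 replicate 2 peaks (11.8%) were within 1 kb of a TSS of any gene, against 16.3% and 16.7% over the lists.

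Most replicate 1 peaks of CDH23 overlapped H3K4me3, in contrast to those of CSMD1. It was 9 of 12 (75%, Wilson 95% interval 46.8 to 91.1) for H3K4me3 replicate 1 and 5 of 12 (41.7%, 19.3 to 68.0) for replicate 2, against 50.2% and 34.0% over the list. For replicate 2 peaks it was 14 of 68 (20.6%) and 5 of 68 (7.35%), against 10.7% and 8.05%. Part of this overlap lay at VSIR. With VSIR and its 10 kb left out, it was 6 of 55 and 0 of 55 for replicate 2 peaks. For replicate 1 peaks it was then 5 of 7 and 2 of 7. Of the 9 shared intervals, 8 overlapped H3K4me3 replicate 1 and 2 overlapped replicate 2. These intervals come from 7 replicate 1 peaks, and the share over all shared intervals of the lists is not given here. All 5 intervals of H3K4me3 replicate 2 were also in replicate 1, and 1 of them, at 79.0 kb, met no DEK peak of either list. Peaks of 1 gene share their libraries and neighbours, so no test was made of these shares.

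CDH23 is rich in G and C, with 52.2% over the extended gene against 41.6% over its chromosome. Its peaks had a median of 51.9% in replicate 1 and 56.4% in replicate 2, against 44.9% and 49.3% for the other peaks of chromosome 10. The shared and unshared peaks had medians of 55.1% and 47.1% in replicate 1 but of 56.5% and 56.2% in replicate 2. No CDH23 peak of either list had 50% or more of its 32-base words at 10 or more copies in the genome.

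The 10 kb limit cut between peaks as follows. At the 5′ end of CSMD1 the outermost replicate 2 peak taken had 21 tags and lay 3.69 kb beyond the body, and the first one left out had 27 tags at 53.4 kb, while replicate 1 had none in the margin and left out a peak of 23 tags at 20.0 kb. At the 3′ end of CDH23 a replicate 2 peak of 16 tags at 9.01 kb was taken and one of 21 tags at 16.5 kb was not. The 3 replicate 2 peaks of that margin lie over the 3′ part of PSAP, which encodes the lysosomal protein prosaposin. The peak of 36 tags at chr10:73578379-73579739 covers an inner TSS of PSAP at 73579028. The outer TSS of PSAP, with H3K4me3 in both replicates, is outside the limit.

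Among the 824 protein-coding genes of 300 kb or more on chromosomes 1 to 22 and X, the 2 genes held the most shared intervals where an overlap of 1 bp counted. CSMD1 came first with 11 and CDH23 next with 9, while 560 of these genes had none. CSMD1 is also 2060 kb long against a median of 446 kb, and the count is not per length. The order depended on the definition of a shared interval. Where both peaks had to overlap by 50%, CSMD1 was still first with 6, and CDH23 had 2, in place 22 together with other genes of that number. With a score of at least 100 in both lists CSMD1 had 1 (place 7) and CDH23 had 2 (place 2), and with lists of equal length they had 1 (place 12) and 3 (place 1), each place shared with other genes. Per 100 kb, CDH23 ranked 9 in replicate 1 and 20 in replicate 2, whereas CSMD1 ranked 51 and 384. The medians of these genes were 0.246 peaks per 100 kb in replicate 1 and 2.74 in replicate 2. CSMD1 ranked 22 by the ratio of its replicate 1 to its replicate 2 density, which was 0.565 against a median of 0.0769 over the 819 genes with a replicate 2 peak. By H3K4me3 density CDH23 ranked 46 and 170 and CSMD1 689 and 673.

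**Figure D5:**
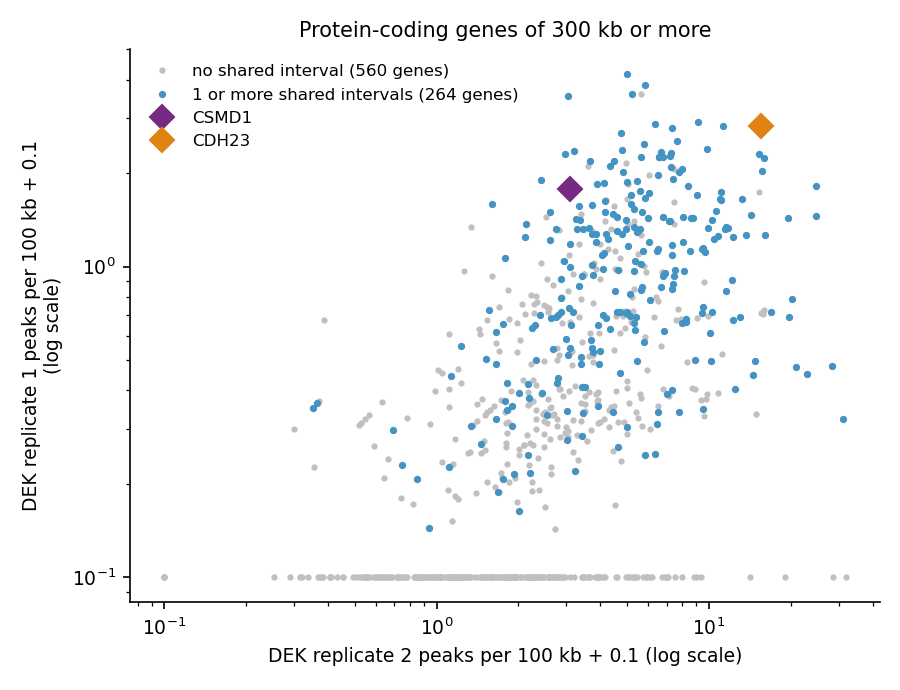
Peaks per 100 kb plus 0.1 in DEK replicate 1 against DEK replicate 2 (log axes), with 1 point for each of 824 protein-coding genes of 300 kb or more, in blue where the gene held a shared interval. CDH23 lies to the upper right, with 2.73 and 15.5 peaks per 100 kb, and CSMD1 lies high in replicate 1 (1.68) and near the middle in replicate 2 (2.98).

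The long genes nearest to CSMD1 in both densities were CPQ, a secreted carboxypeptidase, with 1.72 and 3.05 peaks per 100 kb, VAV3, a guanine nucleotide exchange factor, with 1.69 and 3.14, and SGMS1, a sphingomyelin synthase, with 1.47 and 3.24. Nearness was measured as the distance of log2(peaks per 100 kb + 0.1) over the 2 precipitations. They had 1, 0 and 1 shared intervals, against 11 in CSMD1, and 18, 23 and 9 intervals of H3K4me3 replicate 1, against 4. The genes nearest to CDH23 were LDLRAD4 (2.20 and 15.2 per 100 kb), TNS3, a tensin of cell adhesion (2.14 and 15.9), and KDM4C, a histone demethylase (2.74 and 11.2). They had 7, 5 and 4 shared intervals and 15, 8 and 9 of H3K4me3 replicate 1, against 9 and 16 in CDH23.

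The relatives of the 2 genes held 0 to 4 replicate 1 peaks each, and since the genes are 7.18 to 1825 kb long their counts are given beside a density. As a background, 32.6% of all protein-coding genes, extended in the same way, held a replicate 1 peak, 90.9% a replicate 2 peak and 15.7% a shared interval, and these shares are not adjusted for length. Among 6 genes of CUB and sushi proteins, 3 had a replicate 1 peak, 6 a replicate 2 peak and 2 a shared interval, these being CSMD1, which was itself chosen for its peaks, and CSMD2 (1 interval). CSMD2 had 1 and 42 peaks, or 0.149 and 6.25 per 100 kb. CSMD3, 1214 kb long and also on chromosome 8, had 0 replicate 1 and 11 replicate 2 peaks, or 0.891 per 100 kb in replicate 2.

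The 3 SEZ6 genes are shorter. SEZ6 had 1 and 13 peaks, or 1.398 and 18.2 per 100 kb. SEZ6L had 0 and 1 (0.427 per 100 kb in replicate 2), and SEZ6L2 had 0 and 5 (10.3 per 100 kb in replicate 2). By density in replicate 2, SEZ6, SEZ6L2 and CSMD2 thus stood above the 2.98 of CSMD1, and in replicate 1 none of the 5 relatives reached its 1.68.

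Among 9 genes of the tip link and of Usher syndrome, CDH23 included, 5 had a replicate 1 peak, 9 a replicate 2 peak and 3 a shared interval. PCDH15, which forms the lower part of the tip link and is 1825 kb long, had 3 and 44 peaks, or 0.163 and 2.38 per 100 kb, and no shared interval. ADGRV1, a very large adhesion receptor, had 4 and 32 peaks with 2 shared intervals, or 0.611 and 4.88 per 100 kb. MYO7A, a myosin of hair cells, had 1 and 30 with 1 shared, or 0.935 and 28.0 per 100 kb.

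WHRN had 3 and 9 peaks and no shared interval, or 2.43 and 7.29 per 100 kb. USH1C, USH1G, CIB2 and CLRN1 had no replicate 1 peak and 2 to 8 replicate 2 peaks each, at 2.84, 22.1, 17.0 and 4.51 per 100 kb. In replicate 1 the density of WHRN was near the 2.73 of CDH23, and in replicate 2 those of MYO7A, USH1G and CIB2 were above its 15.5.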

How the data were processed

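DEK and H3K4me3 ChIP-seq peaks of U937 cells were analysed in 2 and 2 samples, and 2 samples of non-precipitated chromatin were not used here. The authors mapped the reads on hg19 (Bowtie 2), then ran MACS 1.4.1 at default settings on each precipitation, with non-precipitated chromatin as control for DEK. The deposited DEK lists give a count of tags per peak, not normalized, a score, the fold enrichment as a ratio and the false discovery rate as a percent. Their positions count from 1. The H3K4me3 lists hold positions only, and their starts were read as counting from 1, which the sources used here do not state.

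Overlap meant at least 1 bp. Density was peaks per 100 kb of the extended gene over that of its chromosome without N bases. The members, gene lists and tests were chosen with earlier results of these data known. Genes named were the members, the 2 lists of relatives, coding genes overlapping a member, and the 3 nearest long genes by log2(peaks per 100 kb + 0.1), and single peaks were every shared interval and the 5 unshared peaks of highest score in each list. Runs, VSIR and sequence windows were chosen after values were seen. Some items of the gene lists and a check against genes of other cell types are not reported here. No test was made, since 2 samples of 1 group and members chosen on these lists allow none. The overlap code was tested on simulated intervals. Python 3.11.15, NumPy 2.4.6, pandas 2.3.3, Numba 0.67.0 and Matplotlib 3.10.9 were used. Alternatives tried were other extensions, scores, overlaps, list lengths and chromosome lengths, the covered share, high-copy peaks left out, and each replicate left out.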

Additional observations from a re-analysis of the deposited data

How the results depend on the processing

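The number of shared intervals depended most on the processing. Where both peaks had to overlap by 50% it fell to 6 in CSMD1 and 2 in CDH23, with a score of at least 100 in both lists to 1 and 2, and with lists of equal length to 1 and 3, while the other extensions and the removal of high-copy peaks left 11 and 9. The density of CDH23 kept its direction in 10 of 10 alternatives, with a mean log2 ratio of 2.49 by covered share. Leaving out 1 DEK replicate gave 1.26 to 2.17 in CDH23 and -0.61 to 1.495 in CSMD1, whose direction thus rests on replicate 1. H3K4me3 intervals numbered 10.5 on average in CDH23 (5 to 16 with 1 replicate left out) and 2.5 in CSMD1 (1 to 4). The causes were not tested. No paired analysis was possible because no result comes from a test between groups. Keeping the upper part of the H3K4me3 lists by score was not run, since they hold no score. Tags are known in peaks alone, so absence of a peak is no measure of absent binding.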

Other observations

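In replicate 1, the densest run of CDH23, again with no gap over 50 kb, spanned 77.9 kb at chr10:73486899-73564777 from C10orf105 to near the 3′ end and held 8 of the 12 peaks with 1637 tags, at 10.3 per 100 kb. Replicate 2 had 20 peaks there, at 25.7 per 100 kb. Runs with at least as many peaks numbered 113 over all chromosomes and 3 on chromosome 10, whereas those with at least as many as the run of CSMD1 numbered 4. In the CSMD1 run 1 of 22 replicate 1 peaks overlapped H3K4me3 replicate 1, and in the CDH23 run 7 of 8 did.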
